A study of Mus musculus with 6 samples.

Results

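The genes described here encode molecular chaperones: the heat shock proteins, their J-domain partners (the DnaJ proteins) and the subunits of the cytosolic chaperonin CCT. They were taken from the deposited table as the rows whose symbol starts with Hsp or Dnaj or is one of Cct2 to Cct8, with a mean of at least 10 normalized counts over the 6 libraries. This gave 69 of 15944 rows, with 68 distinct symbols, from 74 rows whose symbol matched. The libraries are bulk RNA-seq of splenic regulatory T cells (Tregs, the Foxp3-expressing CD4+ lineage that restrains immune responses) of C57BL/6 mice. The cells carried a red fluorescent reporter of Foxp3 and a green fluorescent reporter of RORγt, a transcription factor of type 17 immunity. All 6 libraries came from CD3+ CD4+ cells positive for the Foxp3 reporter. The first group, RORγt+ Tregs, was positive for the RORγt reporter (3 libraries), and the second, CCR6+ RORγt− Tregs, was negative for it and stained for the chemokine receptor CCR6 (3 libraries). The labels give no CCR6 gate for the RORγt+ sort. In the series description the cells are called naive, with a figure of 500000 cells that is not tied to a library. Neither the labels nor that description gives the mice's age, sex or number.

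Chaperones bind unfolded or partly folded proteins and help them reach or keep their native form. HSP70 proteins work in cycles of ATP binding and hydrolysis that DnaJ proteins start and that HSP110 proteins help to reset, HSP90 finishes the maturation of client proteins such as kinases and steroid receptors, and CCT folds actin and tubulin in a closed chamber. Some of these genes (Hspa1a, Hspa1b, Hsph1, Dnajb1, Hspb1) are known for strong induction by the heat shock factor HSF1 when proteins unfold, whereas Hspa8, Hsp90ab1 and the Cct genes are expressed at high levels in unstressed cells. Hspa5 and Hsp90b1 act in the endoplasmic reticulum and are targets of the unfolded protein response.

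Promoter sequences show which members carry the short elements that these stress pathways are known to use. RefSeq promoter windows (GRCm38.p6, 250 bases before to 50 after a gene's start) were found for 56 of the 68 symbols, in 75 windows. The unmatched symbols were Hspa8, Hspa9, Hspa13, Hsp90aa1, Hsp90ab1, Cct4, Dnajc2, Dnajc5, Dnajc11, Dnajc12, Dnajc18 and Dnajc30. The letters GAANNTTC, which read the same on both strands and match the core of a heat shock element, occurred in 14 of the 75 windows (18.7%) and in 7.86% of all 32851 windows. A longer form with 3 units in turn (GAA, TTC, GAA or TTC, GAA, TTC, with any 2 bases between units), which contains GAANNTTC, was searched on both strands and occurred in 6 windows (8.0%) of 4 genes, Hspd1, Hspe1, Hsph1 and Dnajb6, and in 0.603% of all windows. A form of the endoplasmic reticulum stress element (CCAAT, any 9 bases, then CCACG, on either strand) was searched after the values had been seen. It occurred in 3 windows (4.0%), those of Hspa5, Hsp90b1 and Dnajc3, and in 0.119% of all windows. These are matches of letters, and neighbouring or duplicated genes share them. Of the genes that hold GAANNTTC, Hspa1a, Hspa1b, Hspb1 and Dnaja1 (not shown) had a limma unadjusted p under 0.05. Cct2, Dnaja4, Dnajb6, Dnajc27, Hspb6, Hspd1, Hspe1 and Hsph1 also hold it, and their p was above 0.05. The 250 bases before the start are shown for 4 genes with an unadjusted p under 0.05 below, with GAANNTTC in capitals for Hspa1a (chr17:34972157-34972406, minus strand), Hspa1b (chr17:34959239-34959488, minus strand) and Hspb1 (chr5:135887669-135887918, plus strand), and with the stress element in capitals for Hspa5 (chr2:34771840-34772089, plus strand).
Hspa1a: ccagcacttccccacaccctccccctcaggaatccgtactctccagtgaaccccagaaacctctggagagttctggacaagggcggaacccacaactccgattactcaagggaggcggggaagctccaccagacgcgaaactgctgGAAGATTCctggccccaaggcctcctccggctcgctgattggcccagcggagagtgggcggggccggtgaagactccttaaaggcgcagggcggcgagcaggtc
Hspa1b: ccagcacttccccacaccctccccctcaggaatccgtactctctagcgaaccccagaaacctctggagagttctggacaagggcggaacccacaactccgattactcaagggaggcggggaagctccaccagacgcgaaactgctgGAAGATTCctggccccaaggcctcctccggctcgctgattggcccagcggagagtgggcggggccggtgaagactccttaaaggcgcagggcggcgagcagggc
Hspb1: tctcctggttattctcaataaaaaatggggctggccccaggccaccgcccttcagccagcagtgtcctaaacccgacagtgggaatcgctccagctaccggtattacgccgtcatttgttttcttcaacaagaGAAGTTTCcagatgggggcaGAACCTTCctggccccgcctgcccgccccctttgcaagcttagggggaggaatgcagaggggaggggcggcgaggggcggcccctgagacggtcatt
Hspa5: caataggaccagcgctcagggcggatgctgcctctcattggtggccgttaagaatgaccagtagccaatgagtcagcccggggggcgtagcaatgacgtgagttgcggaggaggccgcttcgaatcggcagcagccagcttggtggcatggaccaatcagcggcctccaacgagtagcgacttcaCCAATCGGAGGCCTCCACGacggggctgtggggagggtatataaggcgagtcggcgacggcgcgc
The Hspa1a and Hspa1b stretches differed at 3 of 250 bases and hold the match at the same distance, with its first base 104 bases before the start. Hspd1 and Hspe1, which lie head to head, share a run of 18 bases that both windows hold. It is shown because it joins both longer forms, with the repeated units in capitals (chr1:55088059-55088076, plus strand).
Hspd1 and Hspe1: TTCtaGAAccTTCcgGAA
In the Hsph1 windows the match TTCtgGAAagTTC lies at chr5:149636288-149636300 (minus strand), and in that of Dnajb6 the match GAAtcTTCcgGAA lies at chr5:29735852-29735864 (plus strand).

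The 6 columns summed to 11325900 to 11890800 normalized counts. From the step between low values, the libraries were roughly estimated at 9200000 to 14500000 reads. That step fitted only 51.7% to 69.9% of the low values, so the estimate is uncertain. RORγt+ replicate 3 had the lowest estimate and stood apart, with a value of 0 for 1247 genes, where the other libraries had 438 to 638 such genes. Its log2 values correlated with theirs at 0.932 to 0.939, whereas theirs correlated with one another at 0.947 to 0.967. Foxp3, which defines Tregs, ranged from 9789.7 to 12609 normalized counts over the 6 libraries, and Cd3e from 5409 to 8913, while Ikzf2, a marker of thymus-derived Tregs, was 1435 in RORγt+ replicate 3 and 4784 to 7969 elsewhere. Foxp3 was higher in RORγt+ libraries without overlap (10835 to 12609, against 9789.7 to 10187), as were Il2ra and the larger Ctla4 row. Cd3g was lower without overlap (6631.5 to 6918, against 7922 to 8215), and the smallest limma adjusted p of these was 0.295. The haemoglobin genes summed to 4215 normalized counts in RORγt− replicate 2 and to 50.5 to 856 in the remaining 5, and 4 B cell genes to 537 to 1152 over all 6. The 3 myeloid genes summed to 41.2 to 136 in RORγt+ and 19.8 to 43.0 in RORγt− libraries, and of these Itgam and Csf1r were higher in RORγt+ libraries without overlap. Ccr6, whose protein was stained to sort the RORγt− group, stood at 698, 815 and 899.9 normalized counts in RORγt+ libraries and at 112, 142 and 148 in RORγt− libraries, so its transcript was higher in the group sorted without that gate (limma adjusted p = 0.00554). The part of other cell types in the chaperone values was not tested. No label says that the libraries came from separate animals, so a p-value here reflects only how these libraries spread, and part of that may be technical. In bulk RNA, fewer cells that express a gene and less RNA of it per cell cannot be told apart.

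The comparison asked whether Tregs that express RORγt differ from CCR6+ Tregs without it, here in their chaperone genes. None of the 69 chaperone genes passed limma's test at a Benjamini-Hochberg adjusted p under 0.05, where 0.564% of all genes did (0.32% higher and 0.245% lower in RORγt+ Tregs). At an unadjusted p under 0.05, 6 chaperone genes (8.7%) passed, all lower in RORγt+ libraries, against 10.9% of all genes in either direction (4.8% higher and 6.12% lower). The 6 were Hsp90ab1, Hspb1, Hspa5, Hspa1a, Hspa1b and Dnaja1. Of these, Hspb1 reached the mean of 10 only through the RORγt− libraries (20.1 normalized counts, against 4.59 in RORγt+ libraries). The filter thus favoured its direction, and its place in this and the following counts is no evidence of a direction. The groups did not overlap in 9 of the 69 genes (13.0%), 3 higher and 6 lower, against 18.1% of all genes (8.31% higher and 9.81% lower). With both directions counted together, both shares lie below those over all genes. Counted for lower values alone, the unadjusted share of 8.7% lies above the 6.12% of all genes, and the non-overlap share below the 9.81%. The median log2 fold change (RORγt+ minus RORγt−, on the log2(value + 1) scale) was −0.12 over the chaperone genes and −0.011 over all genes. Of the 69 values 45 (65.2%) were below 0, against 51.2% of all genes. All genes here include those with a mean under 10. Among the 12782 genes with a mean of at least 10, the median was −0.0027 and 50.4% were below 0. Of those genes 11.5% had an unadjusted p under 0.05 by limma and 19.0% did not overlap. Without RORγt+ replicate 3 the median was −0.061, with 38 of 69 below 0, and 1 chaperone gene (Hspa1a, lower) passed the test, where 1.09% of all genes did (0.558% lower). With array weights, which gave RORγt+ replicate 3 a weight of 0.199, 4 chaperone genes passed, all lower (Hspa1a, Hspa1b, Hsp90ab1 and Hspb1), where 2.25% of all genes did (1.18% lower).

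**Figure D1:**
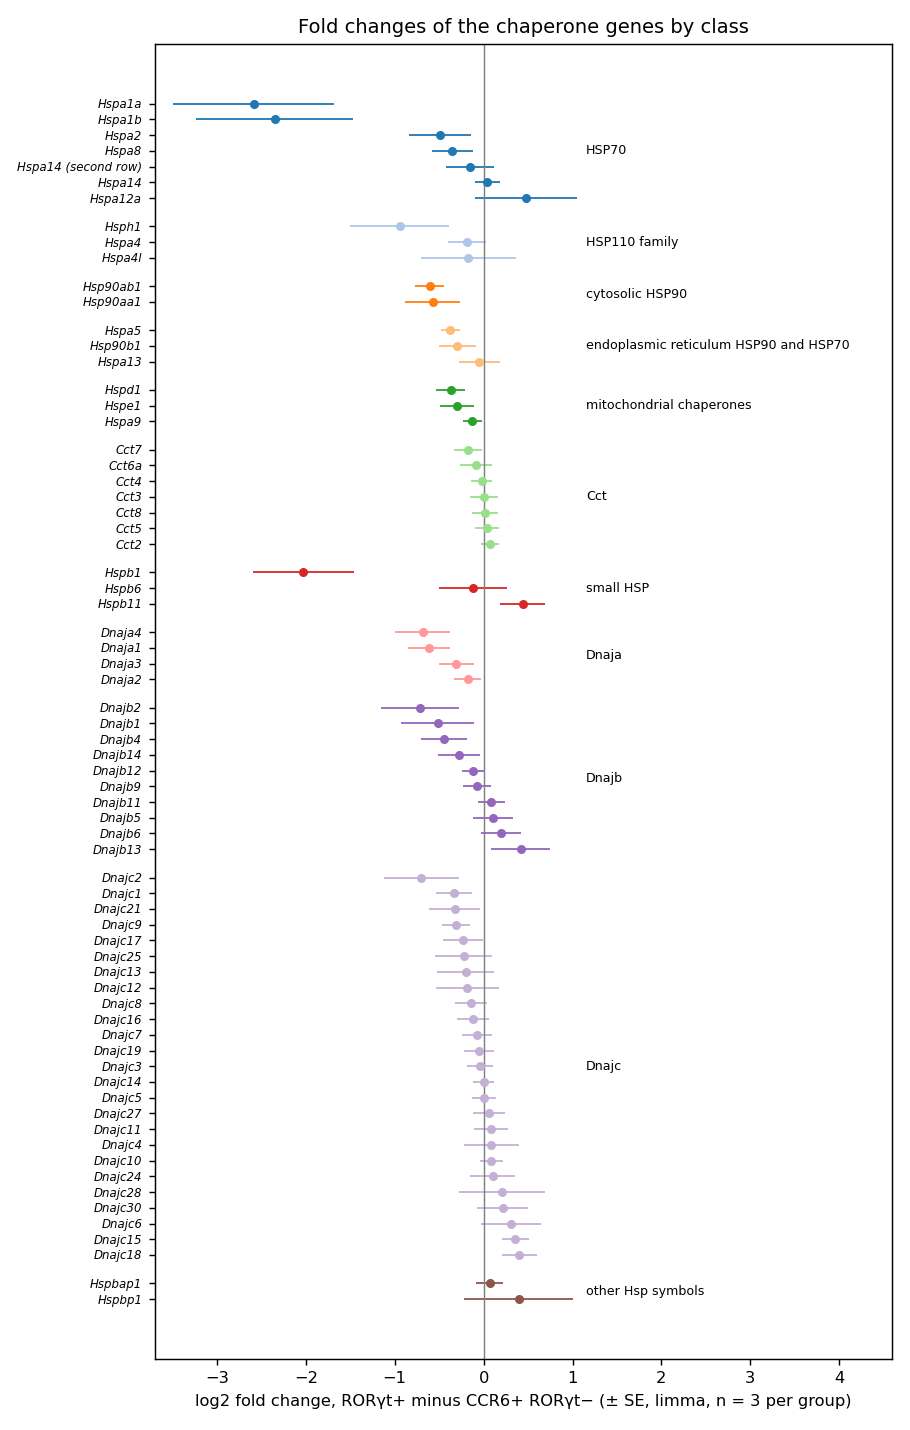
Log2 fold change of each of the 69 chaperone genes (x axis, RORγt+ minus CCR6+ RORγt−, on the log2(value + 1) scale; points are estimates and bars the SE from limma, n = 3 per group), grouped by class on the y axis. Hspa1a (−2.59), Hspa1b (−2.35) and Hspb1 (−2.03) lie far to the left with wide bars, and the Cct genes lie between −0.18 and 0.07.

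The stress-inducible HSP70 genes had the widest spread within the RORγt+ group. Hspa1a (GRCm38, chromosome 17, 34969190 to 34972156, minus strand), which encodes inducible HSP70, stood at 5.46, 19.05 and 104 normalized counts in RORγt+ replicates 1 to 3 and at 199, 108 and 135 in RORγt− replicates 1 to 3. RORγt+ replicates 1 and 2 were low and replicate 3 lay just under the lowest RORγt− library, so the groups did not overlap. The means were 42.8 ± 53.3 and 147 ± 47.2 (SD, n = 3), and the log2 fold change was −2.59 ± 0.91 (SE, limma adjusted p = 0.362). Its neighbour Hspa1b, which encodes a nearly identical protein, stood at 30.5, 107 and 485 against 876, 411 and 609 normalized counts. Here RORγt+ replicate 3 lay within the range of the RORγt− libraries, and the log2 fold change was −2.35 ± 0.88 (SE, limma adjusted p = 0.393). Of the 31-base windows of the Hspa1a transcripts, 63.8% also occur in Hspa1b, so the split of reads between the pair is uncertain. Without RORγt+ replicate 3 the log2 fold changes were −3.66 for Hspa1a (limma adjusted p = 0.0404) and −3.37 for Hspa1b (adjusted p = 0.0562). Without RORγt+ replicate 1 they were −1.65 and −1.39 (limma adjusted p of 0.498 and 0.532).

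Hsph1, which encodes an HSP110 that acts as a nucleotide exchange factor for HSP70, followed the same order of libraries within the RORγt+ group. Its values were 748, 951 and 2599.8 normalized counts in the RORγt+ libraries and 3907, 1196 and 2821 in the RORγt− libraries. RORγt+ replicate 3 was above RORγt− replicate 2, and the log2 fold change was −0.94 ± 0.56 (SE, limma adjusted p = 0.633), and ranged from −1.49 (without RORγt+ replicate 3) to −0.58 (without RORγt− replicate 1) as each library was left out. The related Hspa4 stood at 2973, 2941 and 1810.2 against 2985, 2520.3 and 3118, with RORγt+ replicate 3 the lowest of all. Hspa4l was likewise lowest in RORγt+ replicate 3, at 179 normalized counts against 337 to 770.1 in the other libraries. The 3 genes of this class thus differed in their order of libraries, and none passed (limma adjusted p between 0.633 and 0.959).

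Hspa8, the constitutive HSP70 and per kilobase of transcript the most abundant member (12926 normalized counts per kilobase, mean of 6 libraries), stood at 23118, 22570.3 and 36434 normalized counts in RORγt+ libraries. In RORγt− libraries it stood at 41308, 27451 and 34782. RORγt+ replicates 1 and 2 were the lowest of the 6 and replicate 3 the second highest, with a log2 fold change of −0.35 ± 0.23 (SE, limma adjusted p = 0.674), and ranged from −0.58 (without RORγt+ replicate 3) to −0.21 (without RORγt− replicate 1) as each library was left out. Hspa8 shares 44.8% of its windows with other gene models, 38.6% with the pseudogene model Gm15459. Hspa14, a ribosome-associated HSP70, had 2 rows, of which the larger averaged 657 and 637 normalized counts (limma adjusted p = 0.969). The smaller row carries the identifier that GENCODE names Gm45902, and averaged 76.4 and 84.1. Hspa2 and Hspa12a averaged under 50 normalized counts in both groups, and their groups overlapped.

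**Figure D2:**
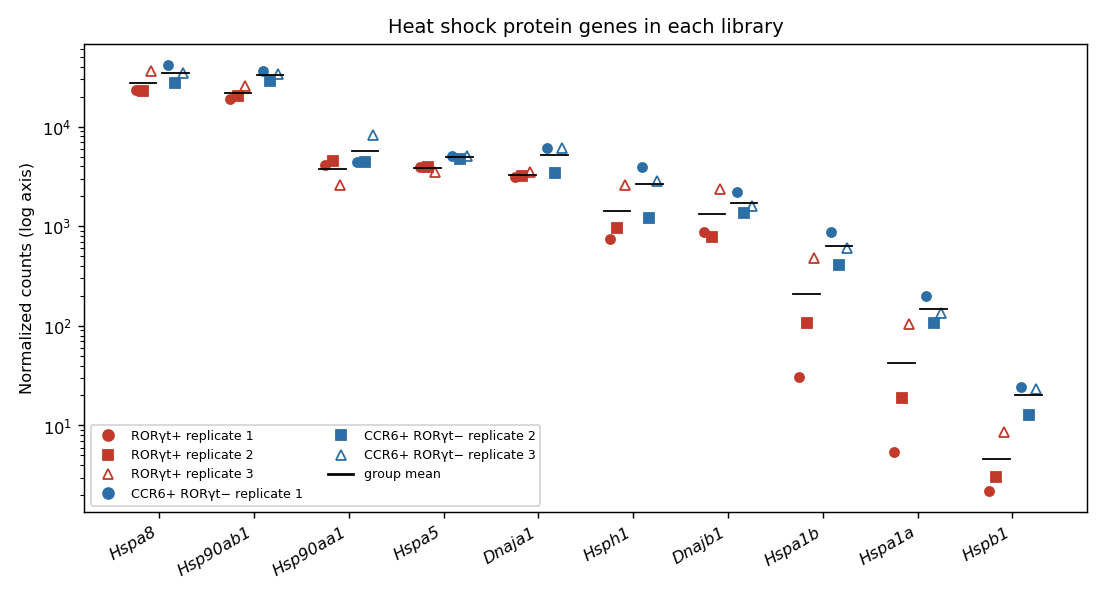
Normalized counts (y axis, log scale) of 10 heat shock protein genes in each library, with the symbol shape giving the replicate, the colour the group and the line the group mean. For Hspa8, Hsph1, Dnajb1, Hspa1b and Hspa1a the open triangle of RORγt+ replicate 3 lies well above the other RORγt+ libraries, whereas for Hspa5 and Hsp90aa1 it lies lowest.

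Cytosolic HSP90 was lower in the RORγt+ libraries for its most abundant gene. Hsp90ab1 (chromosome 17, 45567775 to 45573271, minus strand), the constitutive HSP90 gene, stood at 18904, 20318 and 25637 normalized counts in RORγt+ libraries and at 36213, 28604 and 33596 in RORγt− libraries. Every RORγt+ library was below every RORγt− library. The means were 21619.9 ± 3550.3 and 32804 ± 3866 (SD, n = 3), with a log2 fold change of −0.61 ± 0.16 (SE). This was the smallest p among the chaperone genes (limma unadjusted p = 0.00606, adjusted p = 0.221), and the estimate ranged from −0.74 to −0.52 when each library was left out in turn. Hsp90aa1, the stress-inducible HSP90 gene, stood at 4155 (4154.5), 4567 and 2575 against 4409, 4381 and 8329. Its highest value was RORγt− replicate 3 and its lowest RORγt+ replicate 3, while the other 4 libraries lay between those. The log2 fold change was −0.57 ± 0.31 (SE, limma adjusted p = 0.59). Of the Hsp90aa1 windows 51.5% also occur in other gene models, and 13.2% of those of Hsp90ab1.

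In the endoplasmic reticulum class, Hspa5, which encodes the HSP70 BiP, separated the groups with little spread within each. It stood at 3951, 3939 and 3541 normalized counts in RORγt+ libraries and at 5026, 4756 and 5032 in RORγt− libraries, with no overlap. Its means were 3809.99 ± 233 and 4938 ± 158 (SD, n = 3), the log2 fold change was −0.38 ± 0.11 (SE, limma unadjusted p = 0.00948, adjusted p = 0.263), and 2 of its 4281 windows are shared with other gene models. RORγt+ replicate 3, the highest of its own group for Hspa8, Hspa1a and Hspa1b, was here the lowest of all libraries. Hsp90b1, which encodes the HSP90 of this compartment (GRP94), stood at 4663, 4285 and 2872 against 4036, 4690.1 and 5599.9, and the groups overlapped. Its log2 fold change of −0.29 ± 0.21 (SE, limma adjusted p = 0.701) was −0.082 without RORγt+ replicate 3. Hspa13, a small microsomal HSP70, averaged 204 and 208.

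The mitochondrial chaperones were lower on average in RORγt+ libraries, and none passed the test. Hspd1, which encodes the chaperonin HSP60, stood at 1716, 1622 and 1817 normalized counts in RORγt+ libraries and at 2436, 1761 and 2540.2 in RORγt− libraries. Hspe1, which encodes its lid HSP10 from the neighbouring start site, stood at 833, 813 and 1234 against 1279, 1028 and 1183. The groups overlapped in both, since RORγt− replicate 2 lay below RORγt+ replicate 3. Their log2 fold changes were −0.37 ± 0.16 and −0.30 ± 0.19 (SE, limma adjusted p of 0.479 and 0.663). Of the Hspd1 windows 53.1% also occur in other gene models, mostly the pseudogene Hspd1-ps3. Hspa9, which encodes mitochondrial HSP70 (mortalin), stood at 2289, 2117 and 2296 against 2534, 2436 and 2358, without overlap but with a log2 fold change of only −0.13 ± 0.11 (SE, limma adjusted p = 0.752).

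The CCT subunits, which assemble into 1 ring complex, had the median closest to 0 of the 11 classes. Cct2 stood at 3299, 3381 and 3337 normalized counts in RORγt+ libraries and at 3351, 3075 and 3103 in RORγt− libraries, with a log2 fold change of 0.07 ± 0.10 (SE, limma adjusted p = 0.88). Cct7 was at the other end of the class, at 2199, 2358 and 3130.1 against 2931, 2647 and 3011, with −0.18 ± 0.16 (SE, limma adjusted p = 0.775). The groups overlapped in all 7 genes, the median log2 fold change was 0.0045, and the SE of the estimates reached 0.19 (Cct6a), so small differences could not be resolved. In Cct3, Cct4, Cct5, Cct7 and Cct8, RORγt+ replicate 3 was the highest of the 6 libraries, while Cct6a was lowest there (1315 normalized counts against 1377 to 1968). Per kilobase of the longest coding transcript, the 6 subunits with a coding model lay between 888 and 1788 normalized counts, and Tcp1, the remaining subunit of the ring, at 929. Tcp1 averaged 2350.1 and 2192 normalized counts (log2 fold change 0.09 ± 0.14, limma adjusted p = 0.895).

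Among the small heat shock proteins, which hold unfolded proteins without ATP, Hspb1 had the largest difference. Hspb1 (chromosome 5, 135887919 to 135889563, plus strand), which encodes HSP25, stood at 2.21, 3.03 and 8.53 normalized counts in RORγt+ libraries and at 24.2, 12.7 and 23.4 in RORγt− libraries. The groups did not overlap, and the means were 4.59 ± 3.44 and 20.1 ± 6.45 (SD, n = 3), which rest on few reads. The log2 fold change was −2.03 ± 0.57 (SE, limma unadjusted p = 0.00834, adjusted p = 0.246). As for Hspa1a, RORγt+ replicate 3 was the highest of its group. Of its windows 52.3% also occur in the pseudogene model Hsp25-ps1. Hspb6 overlapped between groups (33.4 and 34.4 normalized counts). Hspb11, whose protein is known as a subunit of intraflagellar transport despite its name, was the 1 gene of the class on the other side, at 92.2, 94.8 and 87.2 against 51.4, 78.6 and 74.9 (log2 fold change 0.44 ± 0.25, limma adjusted p = 0.619).

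DnaJ proteins bring clients to HSP70 and start its ATP hydrolysis, and they made up 39 of the 69 rows. None passed the test, 1 had an unadjusted p under 0.05 (2.56%, against 10.9% of all genes) and 3 did not overlap between groups (7.69%, against 18.1%). All 4 Dnaja genes had log2 fold changes below 0. Dnaja1, a cytosolic partner of HSP70, stood at 3143, 3218 and 3468 normalized counts in RORγt+ libraries and at 6133, 3388 and 6084 in RORγt− libraries. RORγt− replicate 2 lay among the RORγt+ libraries and the other 2 RORγt− libraries were far above them, with a log2 fold change of −0.62 ± 0.23 (SE, limma unadjusted p = 0.0313, adjusted p = 0.399). Dnaja4 stood at 195, 423 and 328 against 588, 374 and 513, and shares 43.2% of its windows with the overlapping gene Wdr61. Dnaja2 and Dnaja3 had log2 fold changes of −0.18 and −0.31 (limma adjusted p of 0.76 and 0.659).

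Dnajb1, the HSP40 partner of inducible HSP70, was, like Hsph1 and Hspa1b, highest of the RORγt+ libraries in replicate 3. Its values were 877, 785 and 2346 normalized counts there and 2219, 1344 and 1588 in the RORγt− libraries. RORγt+ replicate 3 was the highest of all 6. The log2 fold change was −0.52 ± 0.41 (SE, limma adjusted p = 0.738), −1.02 without that library (limma adjusted p = 0.090), −0.23 without RORγt+ replicate 2 and −0.31 without RORγt+ replicate 1. Dnajb2 stood at 162, 66.6 and 195 against 285, 146 and 226, and Dnajb4 at 184, 168 and 167 against 206, 182 and 348, with overlap in both. Dnajb6, a suppressor of protein aggregation that carries the longer element shown above, stood at 1411, 1859.7 and 992 against 1126, 1249 and 1235 (log2 fold change 0.19 ± 0.22). Dnajb11, a BiP partner in the endoplasmic reticulum, averaged 973 and 921.

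The 25 Dnajc genes, a mixed class whose members share little beyond the J domain, had a median log2 fold change of −0.039 with 14 values below 0. Dnajc15, a mitochondrial import factor, stood at 516, 532 and 602 normalized counts in RORγt+ libraries and at 472, 448 and 372 in RORγt− libraries. It did not overlap between groups (log2 fold change 0.36 ± 0.15, limma adjusted p = 0.466). Dnajc18 was also higher without overlap, at 252, 333 and 263 against 203, 187 and 251 (0.40 ± 0.20 on the log2 scale, SE, limma adjusted p = 0.537). Dnajc9, a histone co-chaperone, was lower without overlap, at 1141, 1062 and 827 against 1185, 1279.6 and 1262 (−0.31 ± 0.15 on the log2 scale, SE, limma adjusted p = 0.539). The most abundant were Dnajc7, an HSP70 and HSP90 co-chaperone, Dnajc5, the cysteine string protein of secretory vesicles, and Dnajc3, an inhibitor of the kinase PERK, with averages of 2757 and 2863, 2223 and 2208, and 2125 and 2180.3 normalized counts. Their log2 fold changes were −0.08, 0.0081 and −0.04.

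Of the remaining Hsp symbols, Hspbp1, which encodes an HSP70 nucleotide exchange factor, stood at 208, 154 and 886 normalized counts in RORγt+ libraries and at 253, 167 and 296 in RORγt− libraries. The value of RORγt+ replicate 3 set its log2 fold change, which was 0.40 ± 0.61 (SE, limma adjusted p = 0.894) and −0.37 without that library. Hspbap1, a binding partner of HSP27, averaged 267 and 255. RORγt+ replicate 3 was the lowest of the 6 libraries in 27 of the 69 chaperone genes (39.1%) and the highest in 13 (18.8%), where it was lowest in 30.8% and highest in 30.9% of the 12782 genes with a mean of at least 10. Within the RORγt+ group, the highest library was at least 3 times the lowest in 8 chaperone genes (11.6%, against 13.4% of those 12782 genes), and within the RORγt− group in 2 (2.9%, against 5.76%).

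**Figure D3:**
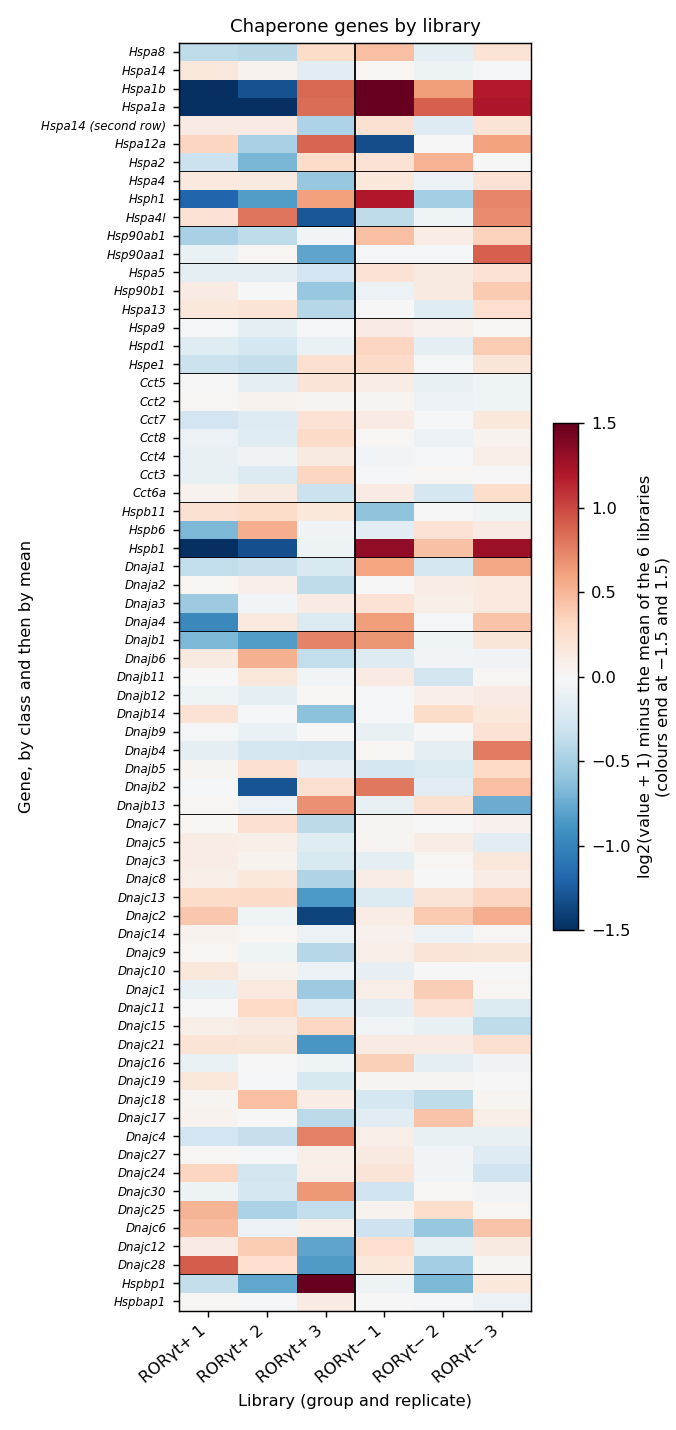
Each row is 1 chaperone gene and each column 1 library, with the colour giving log2(value + 1) minus the gene's mean over the 6 libraries (red higher, blue lower, colours end at −1.5 and 1.5) and lines between classes. Hspa1a, Hspa1b, Hsph1 and Dnajb1 are blue in RORγt+ replicates 1 and 2 and red in replicate 3, while Dnajc2, Dnajc13 and Dnajc21 are blue in RORγt+ replicate 3.

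The chaperone genes together took 0.991%, 1.01% and 1.13% of the normalized counts in RORγt+ replicates 1 to 3 and 1.39%, 1.13% and 1.31% in RORγt− replicates 1 to 3. RORγt+ replicate 3 and RORγt− replicate 2 met in the middle. The group averages were 1.05% ± 0.077 and 1.27% ± 0.13 (SD, n = 3), given as a description with no test. Hspa8 and Hsp90ab1 made up 43.5% of the chaperone counts, and their share was 0.43% ± 0.098 against 0.579% ± 0.093 of each library. The 67 other genes took 0.616% ± 0.022 against 0.695% ± 0.051, and there RORγt− replicate 2 (0.638%) was only just above the highest RORγt+ library (0.635%). The Cct genes took 0.153% ± 0.014 against 0.151% ± 0.0066.

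**Figure D4:**
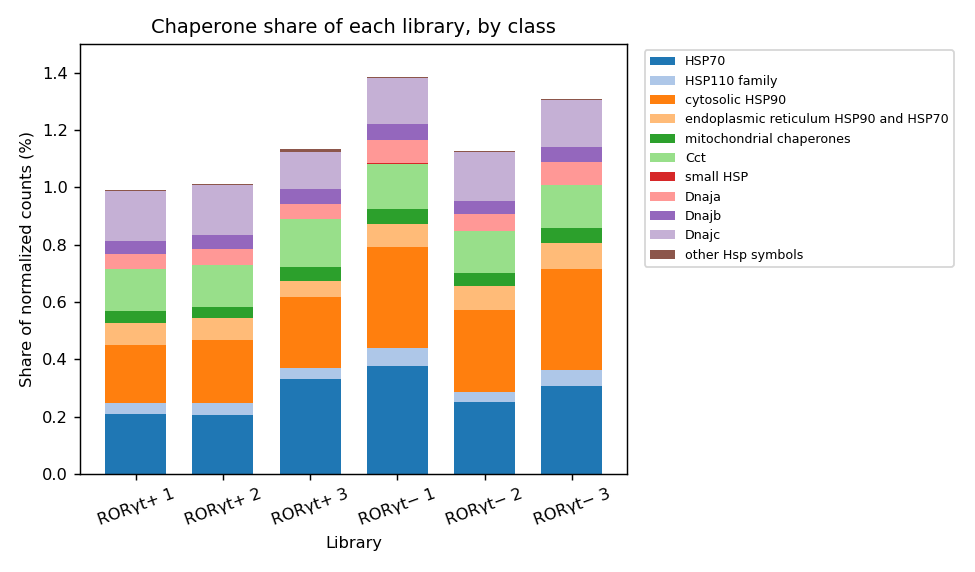
Share of each library's normalized counts (y axis, percent) taken by the chaperone genes, as bars stacked by class for each of the 6 libraries on the x axis. The bars reach 0.991% to 1.13% in RORγt+ libraries and 1.13% to 1.39% in RORγt− libraries, and the HSP70 and cytosolic HSP90 segments differ most between libraries.

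Genes that regulate or work with these chaperones were read from 5 lists. Of 70 measured genes in them, none passed the test, 4 had an unadjusted p under 0.05 (5.71%) and 9 did not overlap between groups (12.9%, 3 higher and 6 lower), against 10.9% and 18.1% of all genes. Hsf1, the heat shock factor itself, stood at 573, 512 and 793 normalized counts in RORγt+ libraries and at 549, 511 and 555 in RORγt− libraries (limma adjusted p = 0.794). The groups overlapped, and RORγt+ replicate 3 was the highest. The other named factor, Hsf4, averaged 16.4 (16.45) and 30.3 with overlap (limma adjusted p = 0.536). Of 25 co-chaperones of HSP70 and HSP90, 17 had log2 fold changes below 0. St13, the HSP70-interacting protein HIP, had the smallest p of all lists, at 1834, 1806 and 1349 against 2698, 2206 and 2530.1 (log2 fold change −0.58 ± 0.16, SE, limma adjusted p = 0.238). Tsc1, a co-chaperone of HSP90 and subunit of the TSC complex, stood at 737, 763 and 595 against 915, 864 and 922 (adjusted p = 0.403 by limma). Of 10 CCT partners and prefoldin genes, Pfdn5 and Pfdn1 had log2 fold changes of −0.29 and −0.31 (limma adjusted p of 0.501 and 0.553). Of 9 mitochondrial partners, Clpb and Pam16 had values of −0.41 and −0.53 (limma adjusted p of 0.575 and 0.656).

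In the list for folding in the endoplasmic reticulum and the unfolded protein response, 12 of 21 genes had log2 fold changes below 0 and none passed the test. Pdia6, a disulphide isomerase, stood at 1003, 1206 and 909.9 normalized counts against 1550.3, 1278 and 1285 (log2 fold change −0.40 ± 0.15, limma adjusted p = 0.406). Sil1, an exchange factor for BiP, stood at 170.4, 165 and 228 against 244, 264 and 234 (−0.41 ± 0.19 on the log2 scale, limma adjusted p = 0.508). Both were lower without overlap, as Hspa5 was. Xbp1, Atf6 and Sec61b, named after their values were seen because they too did not overlap, lay on the other side, with log2 fold changes of 0.32, 0.26 and 0.36 (limma adjusted p between 0.525 and 0.639). The list thus held non-overlapping genes in both directions, 3 higher and 2 lower (23.8% together). Over all genes the share was 18.1% (8.31% higher and 9.81% lower).

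Immediate early genes, which respond to cell handling and to receptor signals, were read beside the heat shock genes. None of 12 passed, 8 had log2 fold changes below 0 and 4 were lower without overlap (Fosb, Dusp1, Egr1 and Junb). Over all genes 51.2% were below 0 and 9.81% were lower without overlap. Their summed level was 8504 to 12369.5 normalized counts in RORγt+ libraries and 10412 to 11152 in RORγt− libraries. Fosb stood at 14.9, 7.87 and 12.9 against 52.6, 55.5 and 52.4, and Dusp1 at 154, 162 and 214 against 373, 310.4 and 339. RORγt+ replicate 3 was the highest library in the summed level. Within its group it was also the highest in Jun (144, 140.1 and 318 normalized counts), Jund (1866, 2042 and 3454) and Ier2 (599.7, 671 and 1007). The same held for the rest of the list except Fos (27.2, 52.4 and 37.2), Fosb and Atf3 (2.5, 9.86 and 0.99). Over all 6 libraries, RORγt+ replicate 3 was the highest only in Jun, Jund, Ier2 and Zfp36 of this list. Among all genes with a mean of at least 10, that library was the highest of the 6 in 30.9%. The share of all genes in which it was the highest within its group was not taken. The part of cell handling in the chaperone values was not tested.

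Near the threshold on the mean, the 2 genes just inside were Hspb1 (12.3 normalized counts over the 6 libraries) and Hspb6 (33.9), and those just outside were Dnajb3 (2.89) and Hspb9 (2.5). Hspb1 was inside only through the RORγt− libraries, with means of 4.59 in RORγt+ and 20.1 in RORγt− libraries. The other matching rows left out included Cct6b and Hspg2, of which Hspg2 encodes the proteoglycan perlecan and no chaperone.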

How the data were processed

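The authors deposited a signal value (normalized counts, 2 decimals) for each of 15944 genes in each of the 6 libraries. Per the submitters' processing notes, the tools were Salmon 1.2.0 and DESeq2 and the build was GRCm38, with no account of the steps. Low values were whole multiples of 1 read (within 0.1) for only 51.7% to 69.9% of values up to 20 reads, so reads were not recovered. Values were analysed as log2(value + 1) with limma 3.58.1 in R 4.3.3 (a group term, moderated variances with a trend, two-sided p-values adjusted by Benjamini-Hochberg over all genes, threshold 0.05), after the fit was tested on simulated data. The simulation gave every gene the same relative spread and held no library that stood apart. It therefore does not show how the fit behaves with RORγt+ replicate 3. The 1842 rows without a symbol stayed in the fit.

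The chaperone genes and the lists were chosen with earlier results of these data known. Named were, per class, the 3 genes of highest mean, the 3 of lowest adjusted p, and genes without overlap and an absolute log2 fold change of at least 0.5, and per related list the 2 of lowest adjusted p. Any gene past the threshold would also have been named, the 2 genes on each side of the mean of 10 were, and other names were chosen after their values were seen. Positions, transcript lengths and windows of 31 bases shared between genes came from GENCODE M21 (GRCm38). Alternatives were pseudocounts, scalings, a filter, weights, robust variances, a replicate block and each library left out.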

Additional observations from a re-analysis of the deposited data

How the results depend on the processing

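Of the alternatives, the replicate block was named when the test was chosen. With pseudocounts 0.1 and 5, 3 other scalings, a mean of at least 10 and robust variances, 0 of 69 chaperone genes passed and the median log2 fold change lay between −0.14 and −0.091. Array weights gave 358 calls over all genes (2.25%) and 4 chaperone genes lower: Hsp90ab1 (−0.68), Hspa1a (−3.33), Hspa1b (−3.03) and Hspb1 (−2.33), with a weight of 0.199 for RORγt+ replicate 3. Leaving out 1 library gave 4 to 174 calls over all genes (174 without RORγt+ replicate 3, and 4 to 10 without any of the others) and 0 to 1 chaperone genes lower (Hspa1a, without RORγt+ replicate 3), and 0 higher. With a replicate block 1 gene passed over all genes and 0 chaperone genes; same-numbered libraries had correlations of deviations of −0.105, −0.022 and −0.184, and none correlated best with its own number. Without the most abundant gene the chaperone share was 0.806% in RORγt+ and 0.977% in RORγt− libraries. Of all 69 genes the sign turned in 18 with array weights, 3 with upper-quartile scaling, 2 each with equal totals and quantile normalization, and 32 in at least 1 fit without a library. Among genes named by the rule it turned with array weights for Hspa4 (0.016), Hspa4l (0.32), Hspa13 (0.13), Cct5 (−0.021), Cct6a (0.054), Dnajc7 (0.072), Dnajc3 (0.032) and Hspbp1 (−0.19), and with upper-quartile scaling for Dnajc5 (−0.012). With libraries left out, it turned for 13 of these, with ranges of −0.036 to 0.13 for Hspa14, −0.31 to 0.047 for Hspa4, −0.62 to 0.43 for Hspa4l, −0.16 to 0.16 for Hspa13, −0.047 to 0.12 for Cct5, −0.23 to 0.052 for Cct6a, −0.42 to 0.19 for Hspb6, −0.023 to 0.43 for Dnajb6, −0.030 to 0.17 for Dnajb11, −0.22 to 0.098 for Dnajc7, −0.067 to 0.099 for Dnajc5, −0.12 to 0.063 for Dnajc3 and −0.37 to 0.89 for Hspbp1. The cause was not tested. With 3 libraries a group and a rough estimate of 0.82 to 1.24 normalized counts per read, folds of low genes such as Hspb1 are imprecise.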

Other observations

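Of the rows without a symbol in the deposited table, 4 carry identifiers that GENCODE M21 names as chaperone pseudogenes, and they lie outside the genes described. Hspd1-ps3 stood at 24.9, 66.1 and 39.9 normalized counts in RORγt+ libraries and at 71.9, 43.8 and 38.7 in RORγt− libraries. Hspe1-ps2, Hspa9-ps1 and Dnajc19-ps averaged 4.95, 2.69 and 1.75 normalized counts over the 6 libraries.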
